A study of Mus musculus with 4 samples.

Results

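The Wnt ligands, receptors, antagonists and effectors of mouse R1 embryonic stem cells (ESCs) were examined before and after differentiation with retinoic acid (RA). The members were the genes of the count tables whose symbols name a Wnt ligand, a frizzled receptor, a Dkk or Sfrp inhibitor or an R-spondin, together with the co-receptors Lrp5 and Lrp6, the R-spondin receptors Lgr4, Lgr5 and Lgr6, the E3 ligases Znrf3 and Rnf43, and the effectors Ctnnb1, Axin2, Tcf7, Tcf7l1, Tcf7l2 and Lef1. In all, 54 of the 24421 genes listed were members: 19 ligands, 10 frizzled receptors, 2 co-receptors, 4 R-spondins, 3 R-spondin receptors, 2 E3 ligases, 4 Dkk and 4 Sfrp inhibitors and 6 effectors. The rule used symbols and no measured values, but the members were chosen with earlier results of these data known.

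RNA of 2 states was sequenced in duplicate on the Illumina TruSeq platform. Both states came from the R1 line. Undiff received no RA, and is described as maintained ESCs with leukaemia inhibitory factor in the methods and as embryoid bodies in the sample labels. A figure legend of the study gives 4 days of growth in ESC medium for Undiff. Day4 was embryoid bodies grown without that factor for 4 days, to which RA at 2 µM was then given for another 4 days (the treatment label gives the same figure in mM). The replicates were grown and treated separately, and all are cultures of a single line. Day4 therefore differed from Undiff in time in culture as well as in RA and, if Undiff was maintained ESCs, also in culture form and in the withdrawn factor, and these cannot be told apart.

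The 4 libraries held between 32.1 and 47.7 M counts on genes. Fragments outside annotated genes took 12.1 to 13.2% of the Undiff and 7.5 to 7.74% of the Day4 libraries, and their part in the results below was not tested. Of the pluripotency markers, 8 of 8 fell in Day4, and their summed level went from 3768 and 3855 CPM (counts scaled to library size) in the Undiff libraries to 21.1 and 17.8 CPM in the Day4 libraries. Of the endoderm markers 8 of 8 rose (8.41 and 9.88 CPM to 570 and 562 CPM), as did 5 of 6 mesoderm and mesenchyme markers (16.3 and 18.9 CPM to 454 and 453 CPM) and 5 of 6 fibroblast markers (64.4 and 59.8 CPM to 1668 and 1520.3 CPM). Gata4 (255 and 259 CPM) and Gata6 (282 and 269 CPM) made up most of the endoderm sum in the Day4 libraries. Sox7 came next (20.2 and 20.1 CPM), and Afp, Ttr and Foxa2 were between 0.921 and 2.26 CPM there. Afp had 0 counts in both Undiff libraries. Thy1 was the fibroblast marker that fell, and Hand1 the mesoderm marker. Of 6 neural markers, 1 rose and 4 fell. Of 6 cardiac and smooth muscle markers, 3 rose and 1 fell, and of 6 endothelial and blood markers, 3 rose and 2 fell. In bulk RNA, fewer cells of a type and less RNA per cell cannot be told apart, and the part of these cell type markers in each result below was not tested.

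Wnt proteins are secreted lipid-modified signals. They bind a frizzled receptor, and in the canonical branch also Lrp5 or Lrp6, after which beta-catenin (encoded by Ctnnb1) escapes degradation and acts in the nucleus with the Tcf and Lef DNA-binding proteins. R-spondins raise the response by removing the E3 ligases Znrf3 and Rnf43, which otherwise clear frizzled receptors from the cell surface. Dkk proteins block the co-receptors and Sfrp proteins bind the ligands, while other branches act through Ror receptors and planar polarity proteins. In ESCs, canonical signalling is known to help keep the pluripotent state, and in the embryo it takes part in axis and mesoderm formation.

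To show the sequence context of the members, promoter windows of 300 bases (250 before and 50 after an annotated start site) were taken from RefSeq on GRCm38.p6. They were found for 36 of the 54 members and comprised 46 windows, since several genes have alternative start sites. The following windows are those of the member with the largest rise, Wnt2b (chr3:104961660-104961959, minus strand), and of the member with the largest fall that had a window, Fzd9 (chr5:135250998-135251297, minus strand). Both are printed 5′ to 3′ along the gene with every CpG in capitals.
Wnt2b: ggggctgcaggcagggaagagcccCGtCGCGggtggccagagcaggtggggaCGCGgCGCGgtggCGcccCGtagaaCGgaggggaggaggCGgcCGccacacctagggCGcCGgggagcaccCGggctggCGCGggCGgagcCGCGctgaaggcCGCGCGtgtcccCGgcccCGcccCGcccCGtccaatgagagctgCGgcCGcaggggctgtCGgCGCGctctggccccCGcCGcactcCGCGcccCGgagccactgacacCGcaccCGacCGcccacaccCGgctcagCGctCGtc
Fzd9: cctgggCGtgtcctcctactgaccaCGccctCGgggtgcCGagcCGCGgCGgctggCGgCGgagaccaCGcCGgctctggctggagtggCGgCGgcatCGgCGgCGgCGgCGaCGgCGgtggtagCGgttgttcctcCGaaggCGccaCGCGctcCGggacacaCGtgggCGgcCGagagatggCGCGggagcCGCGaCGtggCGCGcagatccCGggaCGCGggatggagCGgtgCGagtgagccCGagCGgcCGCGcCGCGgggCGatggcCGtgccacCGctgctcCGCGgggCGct
The Wnt2b window held 43 CpG dinucleotides and 79.7% G or C, and the Fzd9 window 53 and 78.0%. Both were thus rich in CpG, and the genes moved in opposite directions. A link between CpG content and direction was not tested. Over the 46 member windows the median was 25 CpG and 67.5% G or C, against 7 CpG and 52.7% over all 32851 promoter windows. The median was 29 CpG in the 25 windows of members higher in Day4 and 24 in the 13 windows of members lower in Day4. These medians count windows, and genes with alternative start sites enter more than once. Lef1 alone gave windows of 18, 21, 8 and 5 CpG among the lower ones, so the medians do not compare genes.

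The windows were also searched on both strands for the Tcf and Lef recognition letters CTTTGAA and CTTTGAT, which differ in the last letter only. Either motif occurred in 3 of 46 member windows (6.52%), against 8.65% of all promoter windows. CTTTGAA alone was in 5.14% and CTTTGAT in 3.73% of all windows. The matches lay in windows of Wnt11, Dkk1 and an internal start site of Wnt5b, all of which rose in Day4. Members higher in Day4 held 25 of the 46 windows, and a link between the motifs and the rise was not tested. The windows of Wnt11 (chr7:98834862-98835161, plus strand) and Dkk1 (chr19:30549447-30549746, minus strand) are printed with the match in capitals. The match in Wnt11 is on the opposite strand and so reads in reverse complement.
Wnt11: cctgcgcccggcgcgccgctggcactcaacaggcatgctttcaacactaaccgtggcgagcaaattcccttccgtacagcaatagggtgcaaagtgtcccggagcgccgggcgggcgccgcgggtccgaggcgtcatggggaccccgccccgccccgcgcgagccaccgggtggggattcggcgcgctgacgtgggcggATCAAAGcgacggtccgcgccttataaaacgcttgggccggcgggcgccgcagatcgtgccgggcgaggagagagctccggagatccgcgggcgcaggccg
Dkk1: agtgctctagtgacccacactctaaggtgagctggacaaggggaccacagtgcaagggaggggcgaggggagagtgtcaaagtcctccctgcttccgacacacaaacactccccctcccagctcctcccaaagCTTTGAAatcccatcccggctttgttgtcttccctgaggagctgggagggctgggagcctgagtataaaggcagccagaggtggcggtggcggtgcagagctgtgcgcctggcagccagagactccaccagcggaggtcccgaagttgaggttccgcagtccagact
The Wnt11 match spanned bases -51 to -45 and the Dkk1 match bases -117 to -111 from the start site. The match of Wnt5b spanned bases -71 to -65. The DR5 and DR2 elements, direct repeats with 5 or 2 bases between the repeats, are the textbook elements bound by RA receptors. They were searched on both strands as well, and occurred in 0.0974% and 0.268% of all windows and in 0 of the 46 member windows, which says only that these letters were not in these windows.

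To ask which members differed between the states, differentially expressed genes (DEGs) had to meet 3 thresholds, an adjusted p no higher than 0.05, a change of 2-fold or more in either direction and 5 or more normalized counts on average (edgeR, adjusted over 19891 genes with a count in any library). Log2 fold changes are Day4 over Undiff, given ± their standard error (SE). Of the 54 members, 29 were higher and 12 lower in Day4, 10 were not DEGs, and 3 (Wnt1, Wnt8b and Dkk4) had a mean normalized count under 5. The background was high, since 42.8% of all genes tested were DEGs, 22.2% higher and 20.6% lower. Among genes that met the count threshold the background was 51.7%, and 41 of the 51 members at that level were DEGs. The median log2 fold change of the members was 1.76, against -0.03 for all genes tested. With a log2 fold change of 2 or more required in either direction, 31 members remained DEGs, 23 higher and 8 lower, against 24.1% of all genes. The normalized counts of the states did not overlap in 51 members, against 85.4% of all genes, and overlapped for Lrp5, Sfrp2 and Wnt10b. With 2 libraries in each state, an exact permutation test of a single gene cannot go below p = 0.333, so the comparison rests on the spread shared across genes.

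**Figure D1:**
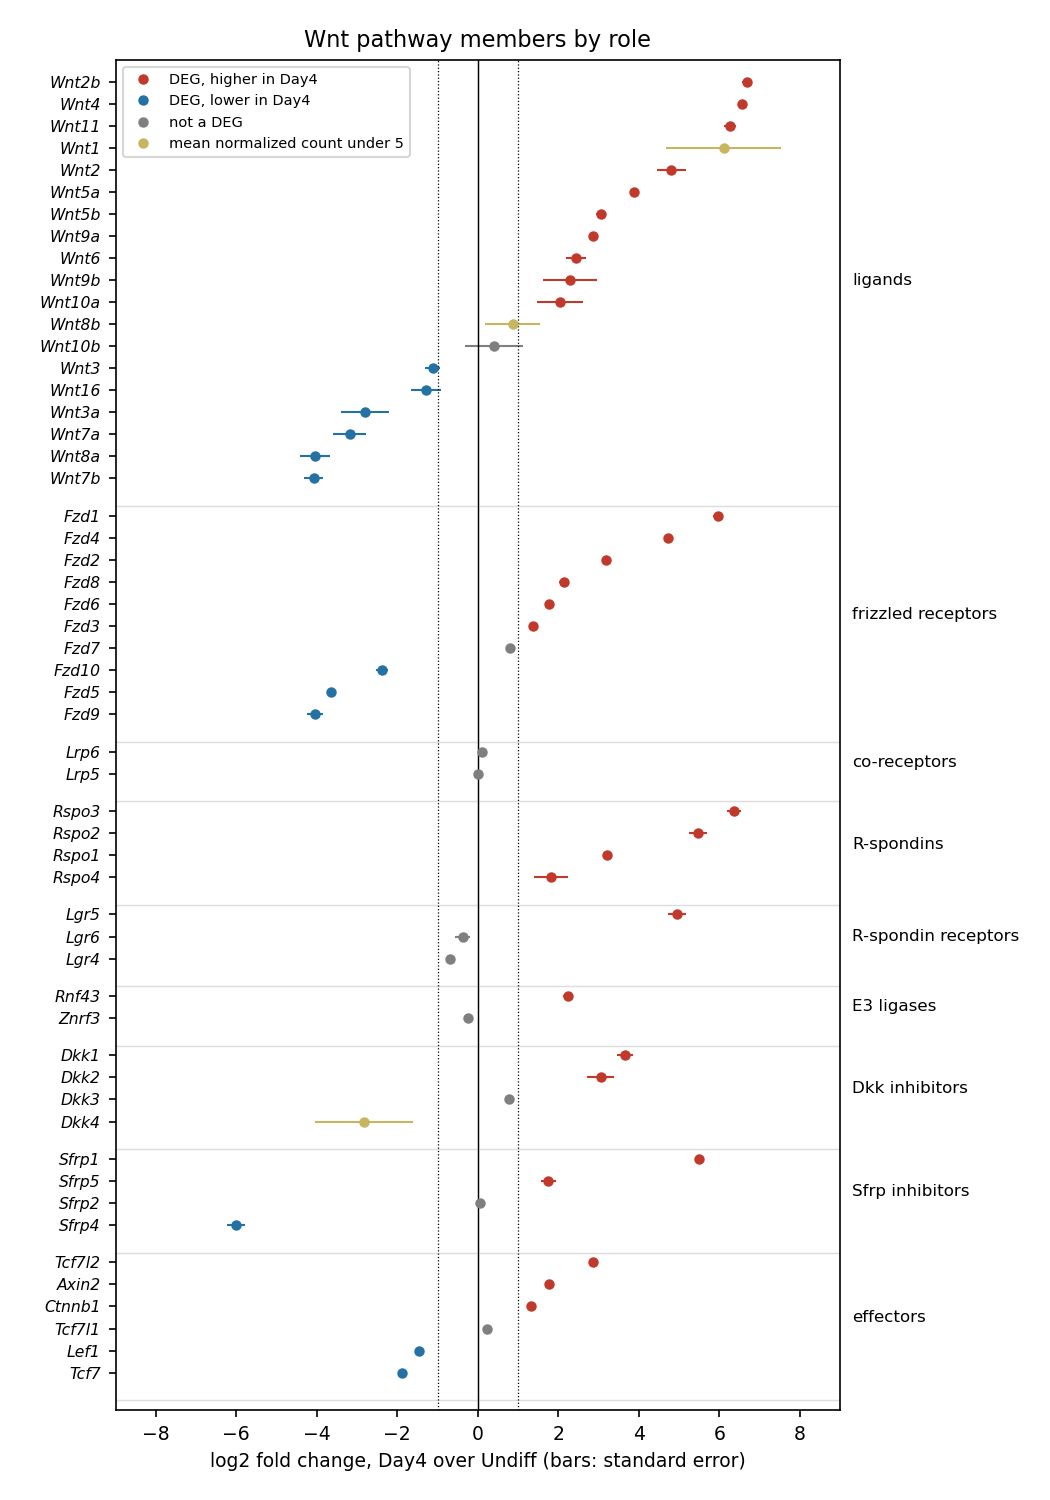
The log2 fold change of each member (Day4 over Undiff, horizontal axis, bars for the SE) is grouped by role, with dotted lines at -1 and 1. Ligands ran from -4.08 (Wnt7b) to 6.68 (Wnt2b), all 4 R-spondins lay to the right of 1, and both co-receptors lay near 0.

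The Wnt ligands changed in both directions. Of 19 ligands, 10 were higher in Day4, 6 were lower, Wnt10b was not a DEG and 2 were under the minimum count. The largest rises were those of Wnt2b, Wnt4 and Wnt11. Wnt4 (chromosome 4, 137277489 to 137299726 of GRCm38, plus strand), which is known for its part in kidney and gonad formation, had normalized counts of 84.4 and 85.0 in the Undiff and 8309.8 and 7869.6 in the Day4 libraries. Its log2 fold change was 6.58 ± 0.08 (adjusted p = 6.38e-16, edgeR), a 95.4-fold rise. Wnt2b (chromosome 3, 104945272 to 104961921, minus strand) had 22.9 and 25.1 in Undiff and 2519.6 and 2418 in Day4, a log2 fold change of 6.68 ± 0.11 (adjusted p = 9.53e-15, edgeR). Both genes were thus low in Undiff and high in Day4, with the states far apart and the replicates close.

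Wnt11, a ligand of the non-canonical branch in gastrulation movements, had 29.2 and 19.1 normalized counts in Undiff and 2029 and 1777 in Day4 (log2 fold change 6.27 ± 0.14, adjusted p = 1.96e-13, edgeR). Wnt2, a paralog of Wnt2b, had 4.17 and 2.39 in Undiff and 100.3 and 94.4 in Day4 (4.81 ± 0.36, adjusted p = 3.07e-08). Wnt5a and Wnt5b, which signal through Ror receptors and planar polarity, both rose. Wnt5a went from 125 and 123 to 1794 and 1859.5 normalized counts, and Wnt5b from 81.3 and 61.0 to 616 and 585, so that the pair stood 14.7-fold and 8.33-fold higher in Day4. Wnt9a, Wnt6, Wnt9b and Wnt10a rose by log2 fold changes between 2.04 and 2.86. Of these, Wnt9b and Wnt10a rested on few counts. Wnt10a went from 5.21 and 2.39 to 12.5 and 19.2 normalized counts, was not a DEG without Day4 replicate 2 (log2 fold change 1.62), and stood at 2.71 without Undiff replicate 1. Wnt9b had 3 counts in each Undiff library and 8 and 30 in the Day4 libraries, a depth-corrected ratio of 5.03 with a 95% counting interval from 2.11 to 14.6, and it was not a DEG without Day4 replicate 2 (log2 fold change 1.26). Wnt1, needed for midbrain formation, had 0 counts in both Undiff libraries and 14 and 5 counts in the Day4 libraries. Against the floor of 3 counts per library its Day4 mean was at least 2.75-fold higher. Day4 replicate 1 carried most of that mean (14.6 normalized counts, against 3.84 in replicate 2). It passed the count minimum, and so was a DEG, without Undiff replicate 1 or without Undiff replicate 2, since leaving out a library of 0 counts raises the mean. Wnt8b had between 2 and 7 counts in each library, too few to show a difference of this size (log2 fold change 0.87 ± 0.69). Counting intervals and floors cover counting error only.

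Of the 6 ligands that fell, Wnt7b and Wnt8a fell the most and Wnt3 the least. Wnt3a and Wnt3, which act in streak and mesoderm formation, had log2 fold changes of -2.80 ± 0.60 and -1.12 ± 0.19 (adjusted p = 0.000806 and 0.000128, edgeR). Wnt3a had 16.7 and 15.6 normalized counts in Undiff and 1.04 and 3.07 in Day4, and without Day4 replicate 2 its log2 fold change was -3.81. Wnt3 had 113 and 94.5 in Undiff and 46.0 and 49.1 in Day4, and without Undiff replicate 1 it missed the fold threshold at -0.98. Wnt8a, also expressed in the streak, went from 61.5 and 58.6 to 4.18 and 3.07 normalized counts (-4.04 ± 0.38, adjusted p = 3.8e-07). Wnt7b, which had the highest level per length of any ligand in Undiff, went from 230.3 and 302 to 15.7 and 15.4 (-4.08 ± 0.23, adjusted p = 1.59e-09). Its paralog Wnt7a fell with it, from 52.1 and 37.1 to 4.18 and 5.37 (-3.18 ± 0.41, adjusted p = 9.37e-06). Of the exons of Wnt7b, 6.61% are shared with AU022754 on the opposite strand, and the methods name only the ONT Direct RNA samples as counted by strand, without naming the option for TruSeq gene counts. Wnt16 fell by 1.29 ± 0.37 on the log2 scale and was not a DEG without Undiff replicate 1. Wnt10b had 4.17 and 5.98 normalized counts in Undiff and 11.5 and 3.07 in Day4, so that the states overlapped (0.40 ± 0.73, adjusted p = 0.623, edgeR), and its estimate changed sign to -0.69 without Day4 replicate 1.

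**Figure D2:**
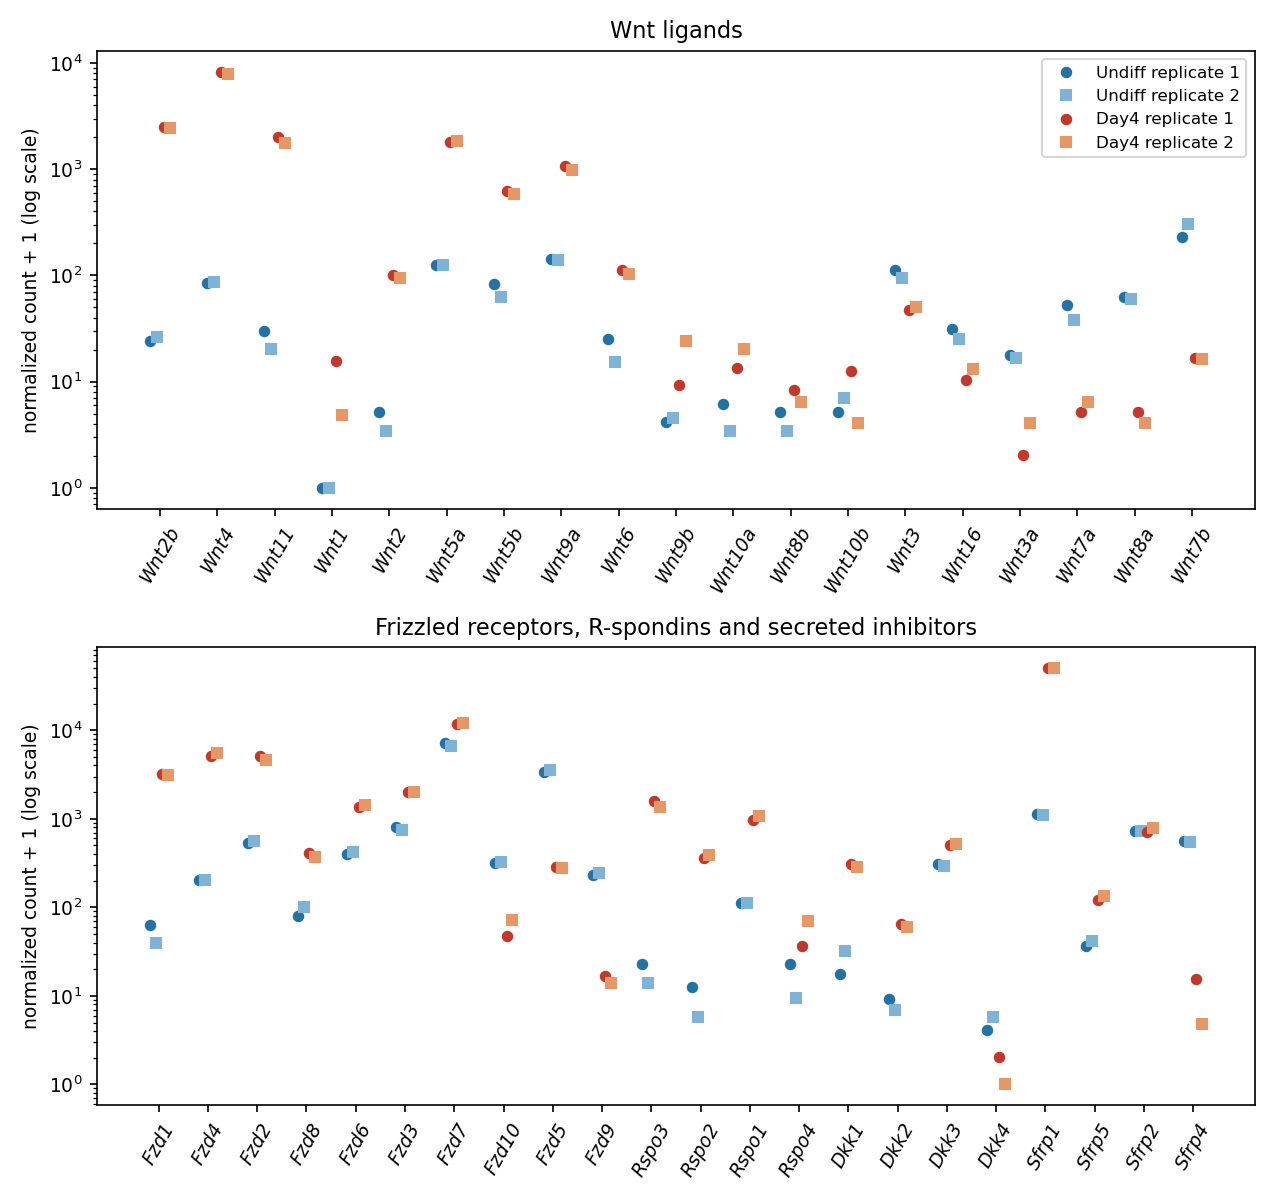
Normalized count plus 1 (log scale, vertical axis) is shown for each library, with circles for replicate 1 and squares for replicate 2, blue for Undiff and red or orange for Day4. Day4 points lie above Undiff points from Wnt2b to Wnt8b in the ligand panel and below them from Wnt3 to Wnt7b, and the states meet for Wnt10b and Sfrp2.

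Levels per length, as FPKM (fragment counts scaled by exon length and by library size), allowed comparison between genes. The lengths came from a different annotation than the counts. The summed level of the 19 ligands was 7.49 ± 0.31 FPKM (SD, n = 2) in Undiff and 103.6 ± 4.18 FPKM in Day4, a 13.8-fold difference. In Undiff the sum was spread over many ligands, with Wnt7b at 19.5 ± 4.46% and Wnt9a at 15.2 ± 0.41%, a pair whose order was within the spread of Wnt7b. In Day4, Wnt4 alone made up 49.7 ± 0.09% of the sum in FPKM (51.5 FPKM), and Wnt2b (15.1 ± 0.17%) and Wnt11 (11.8 ± 0.63%) came next.

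Ligand genes that lie beside each other in the genome did not always move together. Wnt6 and Wnt10a lie 6.19 kb apart on chromosome 1 on the same strand, and both rose. The call of Wnt10a rested on few counts and was lost without Day4 replicate 2, as given above. Wnt3a and Wnt9a lie 16.2 kb apart on chromosome 11 and are transcribed away from each other, and Wnt3a fell while Wnt9a rose (log2 fold changes -2.80 and 2.86). The divergent pair Wnt9b and Wnt3, 24.3 kb apart on the same chromosome, also moved apart, Wnt9b up by 2.29 and Wnt3 down by 1.12 in log2 fold change, although each of these calls was lost without a single library, as given above. Wnt10b and Wnt1, 11.7 kb apart on chromosome 15, were both low. No other protein-coding gene lies within any of these 4 intervals.

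The frizzled receptors, which bind the ligands, also changed in both directions. Of 10 genes, 6 were higher in Day4, 3 were lower and Fzd7 was not a DEG. By sequence the family falls into the groups of Fzd1, Fzd2 and Fzd7, of Fzd5 and Fzd8, of Fzd4, Fzd9 and Fzd10, and of Fzd3 and Fzd6. Fzd1 had 61.5 and 38.3 normalized counts in Undiff and 3179.8 and 3149 in Day4 (log2 fold change 5.96 ± 0.11, adjusted p = 2.04e-14, edgeR). Fzd4, also a receptor for the non-Wnt ligand norrin in blood vessels, went from 200.1 and 202 to 5174 and 5565 (4.74 ± 0.07, adjusted p = 5.25e-15). Its relative Fzd9 moved the other way, from 232 and 240.5 to 15.7 and 13.1 normalized counts (-4.05 ± 0.20, adjusted p = 3.5e-10). Fzd10, the other relative of Fzd4, fell by 2.38 ± 0.16. Fzd5 went from 3352 and 3593 to 281 and 277 (-3.64 ± 0.07, adjusted p = 2.85e-14), while its relative Fzd8 rose by 2.14 ± 0.13. Members of the same sequence group thus differed in direction in both of these groups. Fzd3 and Fzd6, receptors of planar polarity, both rose, by 1.36 ± 0.06 and 1.76 ± 0.07.

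Fzd7 (chromosome 1, 59482424 to 59486955, plus strand, a gene of 1 exon) had the highest level of any frizzled gene in both states, at 40.7 ± 1.71 FPKM in Undiff and 70.5 ± 0.58 FPKM in Day4 (SD, n = 2). Its normalized counts were 7105 and 6696 in Undiff and 11893 and 12033 in Day4. The states did not overlap, but the log2 fold change of 0.79 ± 0.04 was under the threshold (adjusted p = 9.99e-10, edgeR). In Undiff, Fzd7 made up 59.1 ± 1.79% and Fzd5 19.5 ± 1.18% of the summed frizzled level of 68.8 FPKM. In Day4, Fzd7 made up 43.2 ± 0.59% of 163.2 FPKM, followed by Fzd2 (21.9 ± 1.49%), Fzd4 (13.1 ± 0.74%) and Fzd1 (12.3 ± 0.02%), the last pair differing by about the spread of Fzd4, while Fzd5 was at 0.661%. Fzd2 had gone from 529 and 555 to 5158 and 4651 normalized counts (3.18 ± 0.07, adjusted p = 9.98e-14). All members of the Fzd1, Fzd2 and Fzd7 group were thus at their higher level in Day4, Fzd7 short of the threshold.

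The co-receptors Lrp5 and Lrp6, which canonical signalling needs, were not DEGs. Lrp5 had 4047 and 3739 normalized counts in Undiff and 3934 and 3873 in Day4, with overlapping states and a log2 fold change of 0.00 ± 0.05 (adjusted p = 0.963, edgeR) whose sign turned when DESeq2 size factors scaled the libraries (-0.03). Lrp6 had 5230.2 and 5293 in Undiff and 5606 and 5722 in Day4 (0.11 ± 0.04, adjusted p = 0.036), under the fold threshold. Per length, both stood between 10.3 and 11.1 FPKM in each state.

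All 4 R-spondins rose in Day4. Rspo3, which is needed for vessel and placenta formation, had 21.9 and 13.2 normalized counts in Undiff and 1599 and 1354 in Day4 (log2 fold change 6.36 ± 0.17, adjusted p = 8.75e-13, edgeR). Rspo2, a limb and lung R-spondin, went from 11.5 and 4.79 to 358 and 390.0 (5.47 ± 0.23, adjusted p = 6.04e-11), and stood at 6.26 without Undiff replicate 1. Rspo1, which acts with Wnt4 in ovary formation, went from 110.5 and 110.1 to 967 and 1062 (3.20 ± 0.10, adjusted p = 4e-12). Rspo4, a gene of nail formation, rested on fewer counts and its replicates lay further apart, at 21.9 and 8.38 in Undiff and 35.5 and 69.9 in Day4 (1.81 ± 0.43, adjusted p = 0.00167). Its log2 fold change was 2.70 without Undiff replicate 1 and its rise was 1.58 times smaller without Day4 replicate 2 (adjusted p = 0.0357). The summed R-spondin level went from 1.88 ± 0.19 to 29.3 ± 0.19 FPKM, 15.5-fold. Rspo1 made up 81.1 ± 7.95% of it in Undiff, and Rspo1 and Rspo3 made up 47.7 ± 3.45% and 43.6 ± 4.83% in Day4, where their order differed between the libraries.

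The R-spondin receptors and the E3 ligases they act on rose in part, 1 of 3 and 1 of 2 genes. Lgr5, a stem cell marker of the intestine, went from 9.38 and 7.18 to 256 and 268 normalized counts (4.95 ± 0.23, adjusted p = 1.63e-10, edgeR), and its share of the summed level of the 3 receptors in FPKM went from 0.0598 ± 0.01% to 2.97 ± 0.19%. With the longest transcript as the length its share was 0.110% in Undiff and 5.35% in Day4. Lgr4, the broadly expressed receptor, had 7988 and 7706 in Undiff and 4963 and 4735 in Day4, separate but under the threshold at -0.70 ± 0.04 (adjusted p = 6.15e-09). It held 99.1 ± 0.05% of the receptor level in Undiff and 95.9 ± 0.13% in Day4. Lgr6 had 85.5 and 77.8 in Undiff and 67.9 and 59.9 in Day4 (-0.37 ± 0.19, adjusted p = 0.0907). Of the ligases, Rnf43 rose from 106 and 89.7 to 451 and 474 normalized counts (2.23 ± 0.12, adjusted p = 7.64e-10). Znrf3 had 1472 and 1739 in Undiff and 1349.6 and 1375 in Day4 (-0.23 ± 0.07, adjusted p = 0.0103) and stayed the more abundant of the pair, at 93.1 ± 1.52% and 71.0 ± 0.46% of their summed level in FPKM.

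Among the secreted inhibitors, 4 of 8 rose, 1 fell, 2 were not DEGs and Dkk4 was under the minimum count. Sfrp1 (chromosome 8, 23411502 to 23449632, plus strand), which binds Wnt proteins outside the cell, had 1125 and 1094 normalized counts in Undiff and 50206 and 50239 in Day4, a 45.2-fold rise (log2 fold change 5.50 ± 0.05, adjusted p = 6.79e-17, edgeR). Per length it went from 6.78 ± 0.14 to 306.8 ± 0.15 FPKM (SD, n = 2). This was above the summed level of all 19 ligands in Day4. Sfrp4 moved the opposite way, from 555 and 544 normalized counts to 14.6 and 3.84 (-6.01 ± 0.22, adjusted p = 1.68e-11). It was the largest fall of any member, and its value was -7.12 without Day4 replicate 1 and -5.25 without Day4 replicate 2. Sfrp2 had 729 in both Undiff libraries and 712 and 786 in Day4, with overlapping states (0.05 ± 0.07, adjusted p = 0.575) and a change of sign to -0.06 without Day4 replicate 2. Sfrp2 led the Sfrp family in Undiff at 45.5 ± 0.29% of its summed level, and Sfrp1 held 96.5 ± 0.22% in Day4. Sfrp5, known from the anterior endoderm, went from 35.4 and 40.7 to 120.1 and 134 normalized counts (1.76 ± 0.19, adjusted p = 1.96e-06).

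Of the 4 Dkk genes, 2 rose. Dkk1, an induced antagonist of canonical signalling, went from 16.7 and 31.1 to 310.2 and 286 normalized counts (log2 fold change 3.66 ± 0.20, adjusted p = 1.15e-09, edgeR). Dkk2 went from 8.34 and 5.98 to 63.7 and 59.1 (3.06 ± 0.34, adjusted p = 2.07e-06). Dkk3, a divergent member of the family, had 308 and 288 in Undiff and 499 and 519 in Day4, under the fold threshold at 0.77 ± 0.09 (adjusted p = 2.51e-06), and was the highest Dkk gene per length in both states (2.37 ± 0.11 and 4.05 ± 0.11 FPKM). Dkk4 had 3 and 4 counts in the Undiff and 1 and 0 counts in the Day4 libraries, a ratio of Undiff over Day4 of 8.81 with a 95% counting interval from 1.13 to 397.

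**Figure D3:**
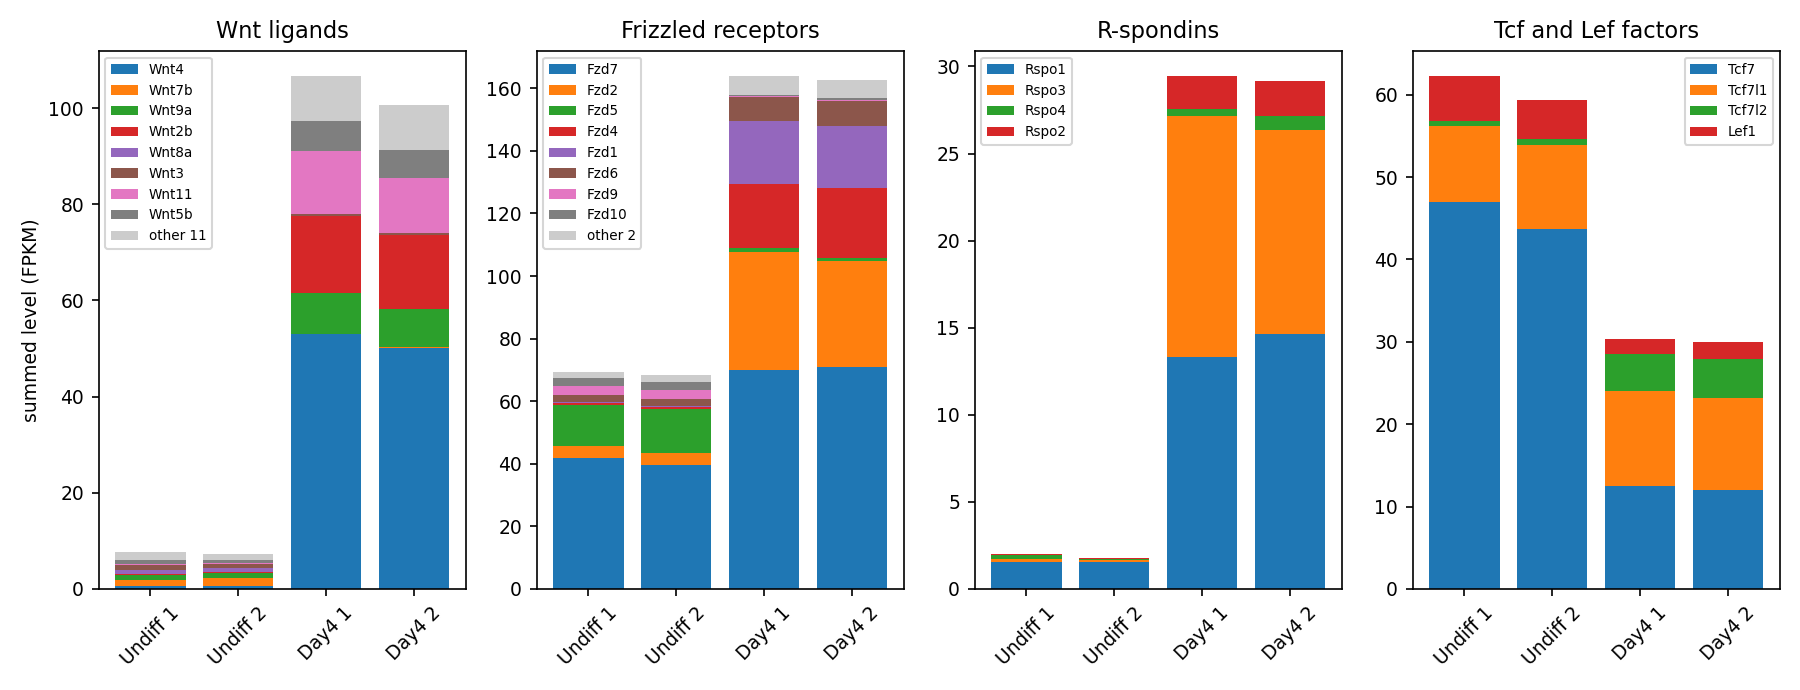
Stacked bars give the summed level (FPKM, vertical axis, from 0) of the ligands, frizzled receptors, R-spondins and Tcf and Lef factors in each library, coloured by gene, with the scale set for each panel. The ligand sum stood at 7.70 and 7.27 FPKM in Undiff and 106.6 and 100.7 FPKM in Day4, where Wnt4 held the largest part, and the Tcf and Lef sum fell while the share of Tcf7l1 and Tcf7l2 grew.

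Of the 6 effectors, 3 were higher and 2 lower in Day4. Ctnnb1, which encodes beta-catenin and is also a part of cell adhesion, had 34838 and 33932 normalized counts in Undiff and 85244 and 86091 in Day4 (log2 fold change 1.32 ± 0.03, adjusted p = 6.29e-13, edgeR). At 176.9 ± 3.3 and 440.7 ± 3.08 FPKM (SD, n = 2) it was the most abundant effector in both states. Of its exons, 14.6% are shared with Ulk4 on the opposite strand. Axin2, a brake on the pathway that is itself induced by beta-catenin in many tissues, went from 489.8 and 457 to 1627 and 1606 (1.77 ± 0.07, adjusted p = 2.2e-11).

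The genes of the nuclear partners Tcf and Lef moved in both directions. Tcf7 had 4622 and 4293 normalized counts in Undiff and 1229.5 and 1175 in Day4 (log2 fold change -1.89 ± 0.06, adjusted p = 2.04e-12, edgeR). Lef1 fell from 1788 and 1558 to 576 and 645 (-1.45 ± 0.08, adjusted p = 1.22e-09), and Tcf7l2 rose from 195 and 231 to 1508 and 1577 (2.87 ± 0.08, adjusted p = 2.12e-12). Tcf7 and Lef1 are mostly known as activators with beta-catenin, and Tcf7l1 as a repressor that holds back pluripotency genes in ESCs. Tcf7l1 had 1346 and 1498 in Undiff and 1684 and 1645 in Day4, separate but under the threshold (0.23 ± 0.06, adjusted p = 0.00435). Of its exons, 4.56% are shared with Gm15401 on the opposite strand. The summed level of the 4 factors was 60.8 ± 2.05 FPKM in Undiff and 30.1 ± 0.28 FPKM in Day4. Tcf7 made up 74.6 ± 1.37% in Undiff and 40.6 ± 0.93% in Day4, Tcf7l1 16.0 ± 1.74% and 37.6 ± 0.26%, Tcf7l2 1.07 ± 0.16% and 15.6 ± 0.64%, and Lef1 8.36 ± 0.53% and 6.16 ± 0.55%. The order of Tcf7 and Tcf7l1 in Day4 depended on the transcript length used, since with the longest transcript as the length Tcf7l1 was at 33.9% and Tcf7 at 30.1%. With that length the share of Tcf7l2 was 2.06% in Undiff and 25.7% in Day4, and that of Lef1 was 16.4% and 10.3%, so that Lef1 was close to Tcf7l1 (16.8%) in Undiff. The share of Tcf7l2 was higher and that of Lef1 lower in Day4 with either length.

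Other genes of the pathway, from a list of 70 that are not members, were read from the same fit. Of these, 25 were higher and 14 lower in Day4, 29 were not DEGs and 2 had a mean normalized count under 5. DEGs were thus 55.7% of the list, against 42.8% of all genes. Among genes that met the count threshold they were 39 of 68, against a background of 51.7%. The 4 genes of ligand export and removal were all DEGs. Wls, which carries Wnt proteins to the cell surface, went from 511 and 562 to 8585 and 8547 normalized counts (log2 fold change 4.00 ± 0.06, adjusted p = 3.32e-15, edgeR), while Porcn, which adds the lipid to them, fell by 1.65 ± 0.09. Notum, an enzyme that removes that lipid, went from 1208 and 1499 to 85.7 and 88.3 (-3.95 ± 0.13). Trabd2b, a membrane protease that cuts Wnt proteins, had the largest rise of the list, from 17.7 and 12 to 3721 and 3809 (7.96 ± 0.11, adjusted p = 2.51e-15). The states were thus far apart for all 4 genes, with an export gene and a removal gene on each side.

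Among the other 11 secreted or membrane inhibitors, 5 rose, led by Frzb (3.67 ± 0.36) and Apcdd1 (2.16 ± 0.10), and 2 fell, Kremen2 (-1.70 ± 0.24) and Dkkl1 (-1.21 ± 0.29). DEGs were thus 63.6% of these 11 genes, against 42.8% of all genes tested. Sostdc1 rose at an adjusted p of 0.0469 (edgeR) and was not a DEG without Undiff replicate 1, Undiff replicate 2 or Day4 replicate 2, where its log2 fold change was 1.13, 1.73 and 1.04. Tpbg, at 1.03, missed the fold threshold without Undiff replicate 2 or Day4 replicate 1 (0.99 in each). Of the 13 other receptors and planar polarity genes, 5 rose and 3 fell. All 13 met the count threshold, and 61.5% were DEGs, against 51.7% of all genes at that level. Gpc3, a cell surface proteoglycan that binds Wnt proteins, had 3159 and 2771 normalized counts in Undiff and 49809.8 and 50054 in Day4 (4.07 ± 0.06), and Ror1, a receptor for Wnt5a, had 45.9 and 58.6 and then 739.6 and 732 (3.82 ± 0.12). The falls were led by the cadherin Celsr3 (-3.99 ± 0.12) and by Gpc4 (-1.75 ± 0.08), a relative of Gpc3. Ptk7 and Prickle1, at 0.99 and 0.98, passed the fold threshold without Undiff replicate 1 (1.08 and 1.06), as did Celsr2, at -0.84, without Day4 replicate 2 (-1.04).

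The dishevelled and destruction complex genes, which relay and restrain the signal in the cytoplasm, had the smallest share of DEGs among the groups of this list. All 19 met the count threshold, and of them 5 rose, 0 fell and 14 were not DEGs. Their share of DEGs was 26.3%, against 51.7% of all genes that met that threshold and 42.8% of all genes tested. Their median log2 fold change was nevertheless 0.69, against 0.03 for all genes that met that threshold. At any fold change, 16 of the 19 had an adjusted p no higher than 0.05 (edgeR), against 15044 of the 19891 genes tested. The largest rises were those of Apc2 (2.47 ± 0.15) and Dvl3 (2.18 ± 0.06), and the smallest those of the casein kinase genes Csnk1d (1.31 ± 0.04) and Csnk1g2 (1.09 ± 0.05). Apc, the scaffold of the complex, had a log2 fold change of -0.26 ± 0.05 (adjusted p = 0.000211, edgeR), under the fold threshold, and was the 1 gene of the group that was lower at an unadjusted p under 0.05. DESeq2 also called 0 of the group lower, which adds no support, since -0.26 was the lowest log2 fold change and the counts were the same. Of 12 nuclear partners, 6 rose and 1 fell. All 12 met the count threshold, and 58.3% were DEGs, near the 51.7% of all genes at that level. Bcl9l, a co-activator of beta-catenin, went from 180.3 and 188 to 3039.8 and 2853 normalized counts (4.00 ± 0.08), and Pygo1, which acts with it, rose by 3.14 ± 0.13. The co-repressor Tle4 went from 9329 and 10120.1 to 1674 and 1692 (-2.53 ± 0.05), while Tle3, a relative, rose by 2.51 ± 0.05. Ctnnbip1, at 1.01, missed the fold threshold without Undiff replicate 1 or Day4 replicate 1 (0.99 and 0.97).

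Genes that beta-catenin is known to induce in many tissues did not move one way. Of 11, 2 rose, 6 fell, 2 were not DEGs and Cdx4 was under the minimum count. DEGs were thus 72.7% of these 11 genes, against 42.8% of all genes tested. Nkd1, which also restrains the pathway, went from 135 and 96.9 to 2319 and 2519 normalized counts (log2 fold change 4.37 ± 0.10, adjusted p = 2.62e-13, edgeR), and Tnfrsf19 rose by 2.47 ± 0.08. Nkd2, the relative of Nkd1, fell from 305 and 269 to 26.1 and 29.9 (-3.34 ± 0.17). T, which encodes brachyury of the primitive streak, went from 122 and 83.8 to 1.04 and 2.30 (-5.78 ± 0.45, adjusted p = 3.81e-08), and stood at -6.49 without Day4 replicate 2. Axin2, Nkd1 and Tnfrsf19 were thus higher in Day4, while Nkd2, T, Ascl2, Ccnd1, Myc and Cdx1 were lower. Cdx1, at -2.0, stood at -2.88 without Day4 replicate 2. Sp5, often taken as a reporter of canonical signalling, had 38.6 and 33.5 in Undiff and 41.8 and 40.7 in Day4 (0.18 ± 0.25, adjusted p = 0.505). Cdx4 had 0 counts in both Day4 libraries and 11.5 and 5.98 normalized counts in Undiff, and passed the count minimum without either Day4 replicate.

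**Figure D4:**
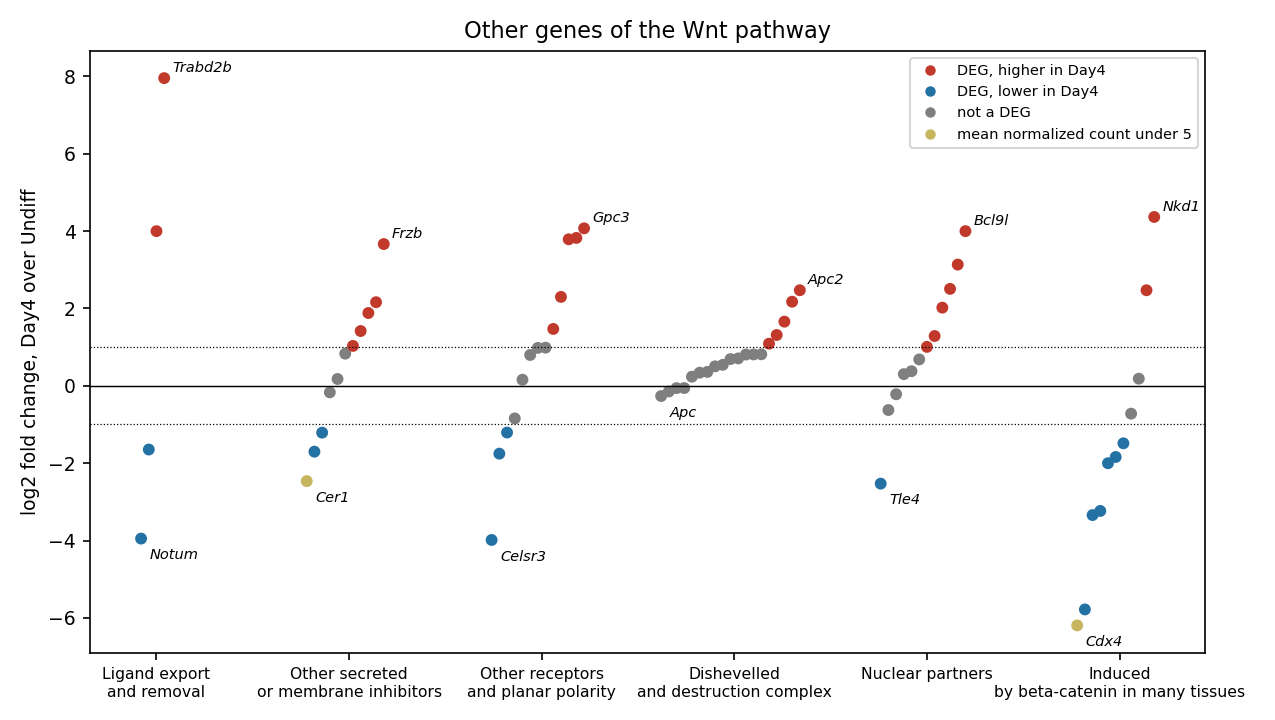
The log2 fold change (Day4 over Undiff, vertical axis) of each of the 70 other pathway genes is shown by group, each point a gene, sorted within its group, with dotted lines at -1 and 1. The 19 dishevelled and destruction complex genes span the narrowest range, from -0.26 (Apc) to 2.47 (Apc2). The 4 genes of ligand export and removal spread from -3.95 (Notum) to 7.96 (Trabd2b).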

How the data were processed

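RNA of 2 Undiff and 2 Day4 cultures of R1 ESCs was sequenced on Illumina TruSeq libraries. The authors used cutadapt for trimming, STAR (v. 2.4.2a) for alignment to mm10, and counted uniquely aligned fragments on genes with htseq-count. The deposited values are raw counts per gene symbol. The methods say that strandedness was taken into account, with ONT Direct RNA samples run as strand-specific, and that exon counts of the other platforms ignored the strand. They do not name the option for TruSeq gene counts. Lines that name no gene were left out of library sizes (fragments outside genes, 7.5 to 13.2%, and fragments on more than 1 gene, 1.84 to 1.91%). Labels name states and replicates. The libraries held 32.1 to 47.7 M counts.

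Here, R (v. 4.3.3) and edgeR (v. 4.0.16) were used for a quasi-likelihood test over the 19891 genes with a count, with trimmed mean (TMM) scaling and state as the only term, on all 4 libraries. Benjamini-Hochberg adjustment ran over all genes tested. The current form of the quasi-likelihood fit was used (10.4 prior degrees of freedom). This was decided after the older form, the default, had been seen to give a prior that was not finite and p-values close to 0, and the older form is given as an alternative. The DEG thresholds are those of the methods of the study. Normalized counts are counts per TMM-corrected library size, multiplied by the geometric mean of those sizes, and FPKM used the union exon length of GENCODE vM21 (GRCm38). The exon overlaps between genes came from the same annotation. The authors counted on an mm10 annotation from iGenomes UCSC, and the effect of that difference on levels, shares and overlaps was not tested. A state at 3 counts or fewer in each library was taken as at the floor. The SE is the absolute log2 fold change divided by the square root of F. The test was checked on simulated counts in which few genes changed, evenly in both directions. That check does not cover scaling or calling when as large a share of genes differs as here. DESeq2 (v. 1.42.0), other scalings, a stricter count filter, other fold thresholds, a replicate block and each library left out were tried as alternatives.

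The members and the lists were chosen with earlier results of these data known. Within each role, values in every library were given for the DEGs with the 4 largest absolute log2 fold changes, the members highest per length in each state and the members at a mean normalized count of at least 5 that were not DEGs, and for others where a call depended on few counts. Of the other pathway genes, the 2 highest and 2 lowest DEGs of each group were named, as were genes whose call changed with a left-out library, which were chosen after their values were seen, like Sp5, Apc, Tle3, Ascl2, Ccnd1, Myc and Cdx4. The listed symbol Tle5 matched no row and its older name Aes was used. Sequences came from RefSeq. Protein sequences were not used here.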

Additional observations from a re-analysis of the deposited data

How the results depend on the processing

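Of the 54 members, 41 were DEGs. The count was 41 with DESeq2 size factors within edgeR, with library totals and with edgeR's older quasi-likelihood fit (chosen after seeing the data), 40 with a stricter count filter, 39 with a test against a 2-fold change and 38 with DESeq2, with or without shrinkage. No member called under any of these alternatives changed direction. The members lost were Wnt9b, Wnt10a and Wnt16 with DESeq2 (adjusted p between 0.0615 and 0.0778), Wnt9b with the count filter, and Wnt3 and Wnt16 with the test against a 2-fold change. With no minimum fold change, 7305 genes were higher and 7004 lower among all genes, 44 of the other pathway genes were higher, and 47 members were DEGs, since Fzd7, Dkk3, Lrp6 and Tcf7l1 joined the higher and Lgr4 and Znrf3 the lower members. That is 1 higher co-receptor, 1 lower R-spondin receptor and 1 lower E3 ligase where there had been 0. By construction this alternative calls smaller changes.

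With a library left out, the higher members numbered 27 to 30 and the lower 10 to 12, ligands 8 to 11 and 4 to 6, and the other pathway genes 23 to 25 and 14 to 16. All genes gave 4195 to 4438 higher and 3889 to 4169 lower. Without Undiff replicate 1, Wnt3 and Wnt16 were lost and Wnt1 gained. Wnt1 was also gained without Undiff replicate 2, and Wnt9b and Wnt10a were lost without Day4 replicate 2. When a state held 1 library, it was assumed to vary like the other. With the replicate block, 29 members were higher and 12 lower, 4414 and 4101 of all genes, and 24 and 14 of the other pathway genes. The replicate numbers were not taken to pair the samples, which were grown separately. The deviations of Undiff 1 and Day4 1 from their state means correlated at -0.01 over 16472 genes. With DESeq2 size factors within edgeR and with library totals, the median log2 fold change of all genes was -0.06 and 0.04, against -0.03.

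With the longest transcript as the length, the leading gene stayed the same in both states for the ligands (Wnt7b 24.9% in Undiff, Wnt4 46.1% in Day4), the frizzled receptors, the R-spondins and the inhibitors, and changed for the Tcf and Lef factors in Day4 (from Tcf7 to Tcf7l1) and the co-receptors in Undiff (from Lrp5 to Lrp6). Depth limits Wnt1, Wnt8b, Wnt9b, Wnt10b and Dkk4 most, which had 11 counts or fewer in at least 3 libraries.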
